A study of Mus musculus with 6 samples.

Results

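The ion channel genes described here are those with a symbol starting with Kcn, Scn followed by a digit, or Cacn in the annotation of the mouse 430A array, taken with all their probe sets. The rule uses the symbol and no measured value, and it gives 137 probe sets of 94 genes, of 22626 probe sets tested and 12393 named genes. The name "voltage-gated channels" fits only part of them. The symbols also take in 32 probe sets of 21 genes for inward rectifier channels (Kcnj) and tandem-pore leak channels (Kcnk), and 6 probe sets of 4 Kcnn genes, small- and intermediate-conductance channels, which calcium opens. Other members are accessory subunits that form no pore.

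Voltage-gated channels are pores of the plasma membrane that open when the membrane potential changes. Sodium channels carry the upstroke of the action potential, calcium channels turn depolarisation into calcium entry for transmitter release, growth and transcription, and potassium channels repolarise the cell and set its resting potential. Young neurons acquire these currents step by step after they leave the cell cycle, and calcium channels opened by small depolarisations are often among the early ones. Hindbrain motor neurons of the embryo use them for spontaneous activity before circuits are complete.

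The tissue was rhombomere 4, the hindbrain segment whose identity the homeobox gene Hoxb1 sets, dissected from mouse embryos at E10.5, in mid-gestation. Per the labels it also held the branchial arches around the segment, so that mesenchyme, crest, vessel and epithelium cells could be present. Wild-type embryos (3 pools) were compared with Hoxb1 mutant embryos (3 pools). Each pool held segments of several embryos, was stated to be an independent biological replicate and gave 1 Affymetrix array. The sources used here do not give the mutant allele, the strain or the number of embryos in a pool.

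The probe set of Hoxb1, the targeted gene, gave 341, 378 and 588 on the wild-type arrays, against 60.8, 35.3 and 50.03 on the mutant arrays. The groups did not overlap, and every mutant value lay below 61.5, a level set from the bacterial controls. Hoxb1 was at least 6.88-fold higher in wild type, with limma adjusted p = 0.0695. Those controls are 27 probe sets for bacterial transcripts without a mouse target, and their values over the 6 arrays centred on a median of 12.7 and reached 122 at most, with 61.5 as the 95th percentile. A probe set is called above the controls on an array where it exceeded 61.5. Intensities are on the linear scale of the deposited table, and values after ± are SD (n = 3). A difference is the mean log2 of the intensity plus 16 in mutants less that in wild type, so that dim probe sets show less than their full change. Median intensities of all probe sets tested were 187 to 214 on the 6 arrays. The 18S ribosomal RNA signal set wild-type replicates 2 and 3 apart, at 12.1 and 11.3 on the log2 scale against 6.36 to 7.03 on the others. Neural progenitor markers were present, with 9 of 10 genes above the controls on all 6 arrays, and all 15 neuron markers were.

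Promoter sequences are shown for members whose groups did not overlap, to give the letters around their start sites. The RefSeq promoter table (build GRCm38.p6) held windows for 75 of the 94 genes, 103 windows in all. The 250 bases before the start are given 5′ to 3′ on the gene's strand for Cacna1c, Kcnip4 and Kcnn1. These members have a limma unadjusted p under 0.05, a window, and 1 group above the bacterial controls on all 3 arrays. Cacna1g, Kcnn2 and Kcnh3 had no window. Kcnip2, Kcnd2, Cacng8, Kcnj5 and Kcnj9, which reached that p with dim probe sets, are not shown. Each gene had several windows, and 1 with matches is shown. Capitals mark matches to any of 6 motifs searched on both strands: the bipartite Hox and Pbx site TGATNNAT, the TATA box TATAAA, the GC box GGGCGG, the E-box CAGCTG, and the pieces TTCAGCACC and GGACAGCG of the site of Rest, a repressor of neuronal genes. Matches of GGGCGG can overlap each other.
Cacna1c, chr6:119108496-119108745, minus strand: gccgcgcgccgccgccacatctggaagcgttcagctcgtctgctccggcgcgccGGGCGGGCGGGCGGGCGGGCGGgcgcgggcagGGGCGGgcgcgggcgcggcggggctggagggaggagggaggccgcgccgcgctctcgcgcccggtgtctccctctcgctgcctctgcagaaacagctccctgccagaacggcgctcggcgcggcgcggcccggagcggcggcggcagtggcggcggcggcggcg
Kcnip4, chr5:49285660-49285909, minus strand: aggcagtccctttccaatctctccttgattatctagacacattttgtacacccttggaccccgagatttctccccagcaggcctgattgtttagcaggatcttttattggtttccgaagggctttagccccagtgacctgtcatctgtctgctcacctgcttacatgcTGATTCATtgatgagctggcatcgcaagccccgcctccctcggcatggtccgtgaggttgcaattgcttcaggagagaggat
Kcnn1, chr8:70863259-70863508, minus strand: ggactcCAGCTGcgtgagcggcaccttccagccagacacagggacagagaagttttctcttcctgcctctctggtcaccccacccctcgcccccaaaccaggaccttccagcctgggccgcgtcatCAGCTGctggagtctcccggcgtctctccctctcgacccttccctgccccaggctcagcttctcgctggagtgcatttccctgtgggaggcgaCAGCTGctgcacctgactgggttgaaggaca

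The Cacna1c window, 1 of 3 for that gene, was 82.8% G and C, with 48 CpG pairs and 6 GC boxes, 5 of which overlapped; the other windows of Cacna1c held 2 and 5 CpG pairs and no motif. That of Kcnip4, 1 of 2, held a single match to the Hox and Pbx site, with its first base 82 bases before the start. The other Kcnip4 window held no motif. That of Kcnn1, 1 of 2, held 3 E-boxes, and the other Kcnn1 window 1 E-box and 1 GC box. The Hox and Pbx pattern stood in 5 of 103 member windows (4.85%), those of Cacna1d, Kcne3, Kcnip4, Kcnmb1 and Scn8a, against 7.68% of all 32851 windows. The GC box stood in 43.7% of member windows and 32.7% of all, the E-box in 25.2% and 13.0%, and the TATA box in 2.91% and 12.4%. The pieces of the Rest site stood in 0 and 2 of the member windows (Cacnb1 and Kcnj4), against 0.301% and 0.992% of all. These matches describe letters in a short window, and no factor was measured on any of them.

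Channel probe sets often lay near the background of the arrays. Of the 137 probe sets, 42 (30.7%) were above the controls on all 6 arrays, against 68.2% of all probe sets tested, 44 were above on 1 to 5 arrays, and 51 (37.2%) on none, against 17.4% of all. By gene, 40 of 94 had a probe set above on all 6 arrays, 29 reached this on some, and 25 on none. Against the highest bacterial value, 122, in place of the 95th percentile, 17 probe sets were above on all 6 arrays. The mean intensities of the 42 ran from 76.7 to 495. Bulk tissue does not separate few cells with much of a transcript from many cells with little, and fewer cells of a type and less RNA per cell cannot be told apart.

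**Figure D1:**
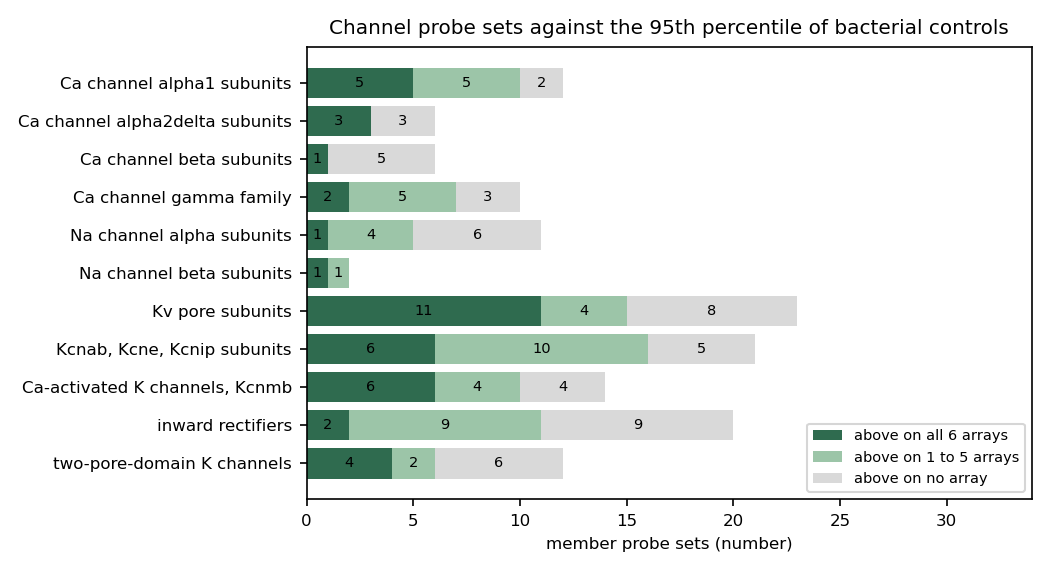
Number of member probe sets (horizontal axis) in each of 11 subgroups (rows) that exceeded 61.5, the 95th percentile of the bacterial controls, on all 6 arrays, on 1 to 5 or on none. Pore subunits of voltage-gated potassium channels had 11 of 23 above on all 6 arrays, and sodium channel alpha subunits 1 of 11.

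Among the pore subunits of calcium channels, Cacna1c, Cacna1d and Cacna1f of the L-type and Cacna1g and Cacna1h of the T-type were above the controls on all 6 arrays. Cacna1a, the pore of P/Q-type channels, reached 5 of 6 arrays, and Cacna1e, of R-type channels, 1. Cacna1b, of N-type channels, and Cacna1s, of skeletal muscle, were above on none. The alpha2delta subunits Cacna2d1, Cacna2d2 and Cacna2d3, which carry the pore to the surface, each had a probe set above on all 6. So did Cacnb1 of the cytoplasmic beta subunits, and Cacng4 and Cacng5 of the gamma family, of which some members regulate glutamate receptors; Cacnb2, Cacnb4, Cacng2 and Cacng8 were above on no array.

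Among sodium channels, Scn8a and the accessory subunit Scn3b were above on all 6 arrays, while Scn1a, Scn2a, Scn7a and Scn10a were above on none. Scn3a, known from embryonic neurons, was above on 1 array and Scn9a, of sensory and sympathetic neurons, on 4. Among pores of voltage-gated potassium channels, Kcna2, Kcna4, Kcna5, Kcna6, Kcna7, Kcnc1, Kcnd1, Kcnh1, Kcnh2, Kcnh3 and Kcns2 were above on all 6, and Kcna1, Kcnc4, Kcnd2, Kcnq5 and Kcns1 on none. Kcna3, Kcnd3, Kcnh7 and Kcnq1 lay between. Of their accessory subunits, Kcnab1, Kcne1l, Kcne3, Kcnip1, Kcnip2 and Kcnip3 were above on all 6, and Kcne1 on none.

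Of the channels that calcium opens, the large-conductance pore Kcnma1, its partners Kcnmb1, Kcnmb2 and Kcnmb4, and Kcnn1 were above on all 6 arrays, Kcnn2 on some, and Kcnn3 and Kcnn4 on none. Kcnu1, a relative of Kcnma1 that voltage and alkaline pH open and that is counted in the same subgroup, was above on 1 array. Of the inward rectifiers, Kcnj3 and Kcnj6, which form channels opened by G proteins, were above on all 6, and Kcnj1, Kcnj2, Kcnj9 and Kcnj15 on none. Of the leak channels, Kcnk1, Kcnk2 and Kcnk5 were above on all 6, and Kcnk3, Kcnk7 and Kcnk10 on none.

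No channel probe set passed the threshold between mutant and wild type. In limma, 0 of 137 had an adjusted p under 0.05, where 0% of all probe sets tested did, and the lowest was 0.632. At an unadjusted p under 0.05, 12 members stood in either direction, against 5.76% of all probe sets. Of these, 8 (5.84%) were lower in mutants, against 3.88% of all probe sets, and 4 (2.92%) were higher, against 1.88%. The groups did not overlap, with mutants lower, in 14 members (10.2%), against 7.08% of all, and with mutants higher in 7 (5.11%), against 4.88%. The median difference was -0.03 over the 94 genes, each taken with its brightest probe set, and -0.02 over all 12393 named genes. These shares lay near those of all probe sets. The median standard error was 0.20 in members and 0.16 over all probe sets.

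Single arrays moved these counts. On mutant replicate 1, 74 of 137 members (54.0%) were the highest of the 3 mutant values, as were 48.6% of all probe sets, and its median over member genes lay 0.02 above the wild-type mean, against -0.14 and -0.08 on mutant replicates 2 and 3. Without it, 14 members (10.2%) were lower at an unadjusted p under 0.05, against 6.51% of all probe sets. Without mutant replicate 2, 5 (3.65%) were lower, against 2.90% of all, and without mutant replicate 3, 4 (2.92%), against 2.99%. Without wild-type replicate 2, 5 (3.65%) were lower, against 2.88%, and 8 (5.84%) higher, against 2.02%. Without wild-type replicate 1, 7 (5.11%) were higher, against 2.12%. With the 18S signal as a covariate, 2 (1.46%) were lower, against 2.20%. Adjusted p stayed above 0.05 for all members under these settings.

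**Figure D2:**
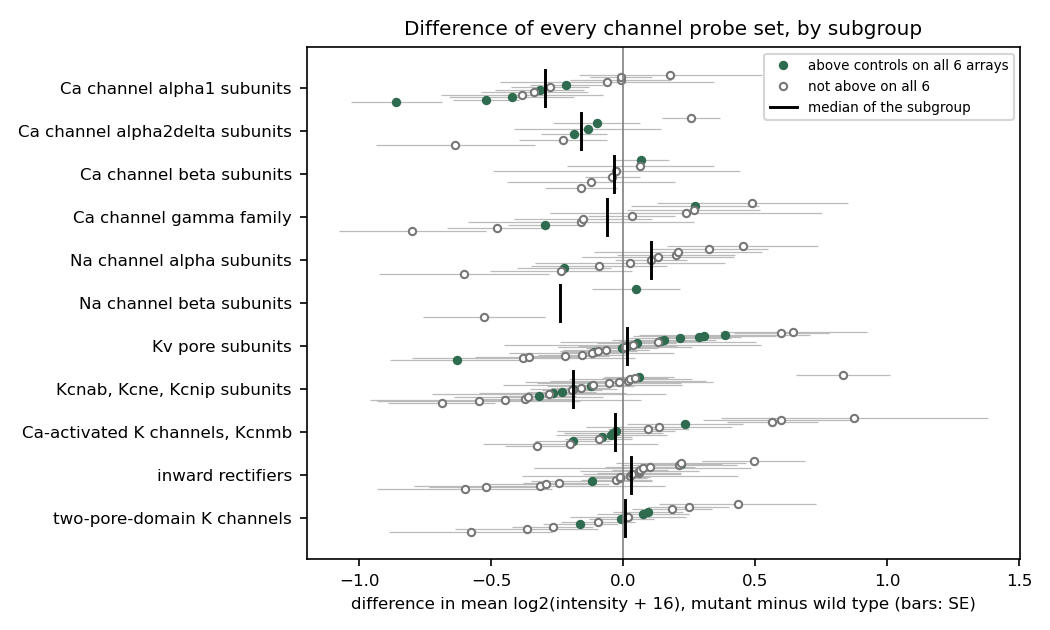
Difference of each of the 137 probe sets between mutant and wild type on the log2(intensity + 16) scale (horizontal axis, bars are SE), by subgroup; filled points were above the controls on all 6 arrays and the vertical bars are subgroup medians. The points spread to both sides of 0 in most subgroups, and those of calcium channel alpha1 subunits lie mainly to the left, with a median of -0.30.

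The pores of calcium channels were lower in mean in mutants for 11 of 12 probe sets, where 54.2% of all probe sets were, with a median difference of -0.30. With quantile normalization 8 of 12 were lower, where 48.8% of all probe sets were. With centring on array medians 9 of 12 were, where 43.6% of all were. The medians were -0.24 for each, against 0.0055 and 0.03 over all probe sets. Of the 12 pore probe sets, 2 (16.7%), those of Cacna1g and Cacna1c, had groups that did not overlap. Both were lower in mutants, where 7.08% of all probe sets were lower without overlap. Motor neuron markers, summed over their list, ran from 2737 to 3059 on wild-type and from 2388 to 2587 on mutant arrays. Sums of neural progenitor markers and of mesenchyme and crest markers were also lower on every mutant array than on every wild-type array. A part of any of these cells in the pores was not tested. Over the 15 alternative settings that keep all 12 pore probe sets, the count lower ran from 8 to 12 and the median from -0.37 to -0.18. Of all probe sets, 43.6% to 59.7% were lower under these settings, with medians from -0.06 to 0.03. The median of the pores was -0.19 without mutant replicate 2. The 9 genes of this group include those of currents that open near rest (Cacna1g and Cacna1h) and L-type genes, whose channels are known to link activity to transcription (Cacna1c and Cacna1d).

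Cacna1g, the pore of a T-type channel opened by small depolarisations, had the smallest p of all members. Its only probe set gave 219, 234 and 274 on the wild-type arrays, against 100.3, 154 and 129 on the mutant arrays. All 3 mutant values lay under the lowest wild-type value, and all 6 were above the bacterial 95th percentile. The means were 242 ± 28.6 (wild type) and 128 ± 26.6 (mutant), a difference of -0.86 (SE 0.17), with limma adjusted p = 0.632. Over 16 alternative settings the difference ran from -0.99 to -0.68 and the adjusted p from 0.415 to 1.00.

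Cacna1c, the pore of the L-type channel found in neurons, heart and smooth muscle, gave 119.7, 142 and 151 on the wild-type arrays, against 84.8, 94.5 and 92.5 on the mutant arrays with its only probe set. The groups again did not overlap, and the mutant arrays lay close together. The means were 137 ± 16.03 (wild type) and 90.6 ± 5.11 (mutant), a difference of -0.52 (SE 0.12), with limma adjusted p = 0.710. The difference was -0.38 with the 18S signal as a covariate and -0.35 without wild-type replicates 2 and 3, which hold the high 18S signal.

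The other calcium channel pores showed smaller differences with overlapping groups. Cacna1h, also T-type, gave 188, 139 and 188 on wild-type against 162, 134 and 84.5 on mutant arrays (-0.42, SE 0.24) with its brighter probe set, and a dimmer probe set gave 0.18 (SE 0.35) in the other direction. Without mutant replicate 3 the brighter one was at -0.19. Cacna1f, known from the retina, gave 211, 241 and 239 on wild-type against 228, 148 and 177 on mutant arrays (-0.32, SE 0.17), and without mutant replicate 2 its difference was -0.18. The brighter and the dimmer probe set of Cacna1d were both lower in mean, at -0.22 and -0.34 (SE 0.14 and 0.20). So were those of Cacna1a, with -0.38 (SE 0.31) and -0.28 (SE 0.15). Cacna1e and Cacna1b, near background, gave -0.06 (SE 0.41) and -0.01 (SE 0.12), and Cacna1s -0.01 (SE 0.19).

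Accessory calcium channel subunits had medians of -0.16 (alpha2delta), -0.03 (beta) and -0.06 (gamma), which single arrays moved or turned. Without wild-type replicate 3 the alpha2delta median was -0.07, and without wild-type replicate 1 or mutant replicate 1 it was -0.25. The beta median was -0.22 without wild-type replicate 1, -0.08 without wild-type replicate 3 and 0.10 without wild-type replicate 2, and it was also above 0 without mutant replicate 1 or 3. The gamma median was 0.11 without mutant replicate 2. Cacng4, a gamma protein that also regulates glutamate receptors, gave 162, 172 and 209 on the wild-type arrays, against 130.0, 158 and 143 on the mutant arrays. The groups did not overlap, but the difference was -0.30 (SE 0.14), and -0.20 without wild-type replicate 3, with limma adjusted p = 0.833. Cacnb1 gave 173, 173 and 157 on wild-type against 177, 178 and 176 on mutant arrays, which did not overlap either, although the difference was only 0.07 (SE 0.10). Cacng8, below 61.5 on every array, gave 44.1 ± 9.17 (wild type) and 20.03 ± 14.3 (mutant) and -0.80 (SE 0.28), and Cacng1, of skeletal muscle, gave 59.4, 37.02 and 66.8 on wild-type against 39.9, 30.3 and 31.5 on mutant arrays (-0.48, SE 0.19), with 1 of 6 arrays above the controls. Cacna2d1 gave -0.19 (SE 0.12) with its brighter probe set, and 0.26 (SE 0.11) with one below 61.5 on all arrays. Cacng3 and Cacng5 (its probe set above the controls) gave 0.27 (SE 0.25) and 0.27 (SE 0.24), and both turned negative with the 18S signal as a covariate. Without each array in turn they ran from 0.08 to 0.55 and from 0.12 to 0.51. The dimmer probe set of Cacng5 gave -0.15 (SE 0.26).

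**Figure D3:**
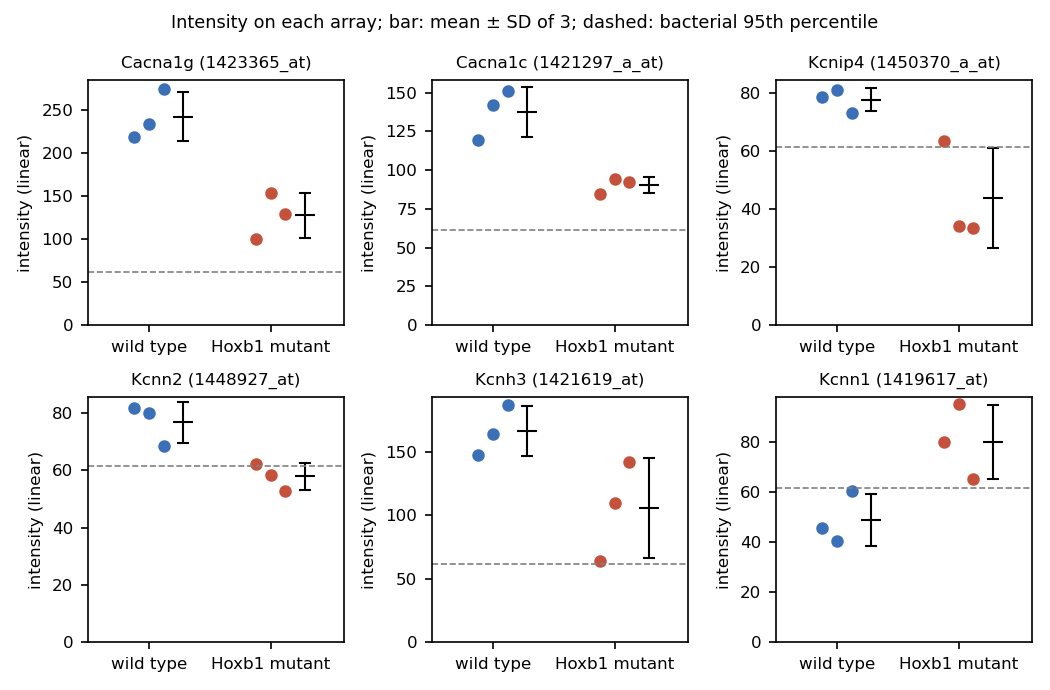
Linear intensity (vertical axis, from 0) of 6 member probe sets on each of 3 wild-type (blue) and 3 mutant (red) arrays; black bars are the mean ± SD and the dashed line is 61.5, the bacterial 95th percentile. Cacna1g and Cacna1c stayed above the line on all arrays with every mutant value below every wild-type value, while Kcnip4, Kcnn2 and Kcnn1 straddled it.

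Of 13 sodium channel probe sets, 0 had an unadjusted p under 0.05, against 5.76% of all probe sets, and 0 had groups that did not overlap, against 12%; so few probe sets can give 0 at these shares. Scn8a, the pore of a channel dense at the axon initial segment, gave 130.0, 125 and 180.4 on the wild-type arrays, against 144, 110.4 and 109.5 on the mutant arrays. The groups overlapped, with a difference of -0.22 (SE 0.18), and the dimmer Scn8a probe set gave -0.09 (SE 0.26). Scn3b, a beta subunit, gave 120.2, 141 and 173 on wild-type against 172, 132 and 145 on mutant arrays (0.05, SE 0.17). Its dimmer probe set gave 67.4, 51.5 and 57.6 on wild-type against 54.5, 35.6 and 22.1 on mutant arrays (-0.53, SE 0.23), with 1 of 6 arrays above the controls. The bright and the dim one thus differed in sign. Scn9a gave 71.01, 64.7 and 74.3 on wild-type against 142, 39.6 and 59.97 on mutant arrays (0.03, SE 0.36), with mutant replicate 1 as the highest value. Scn3a gave -0.23 (SE 0.27), Scn2a 0.33 (SE 0.22) and 0.10 (SE 0.14), and Scn1a 0.20 (SE 0.22) and 0.13 (SE 0.29), all from values near or below the controls.

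Pore subunits of voltage-gated potassium channels lay to both sides of 0, with 10 of 23 lower in mean and a median of 0.02, which ran from -0.06 to 0.10 without each array. Kcnh3, of the ether-a-go-go family, gave 148, 164 and 187 on the wild-type arrays, against 64.5, 110.0 and 142 on the mutant arrays. The groups did not overlap, the lowest mutant value came from replicate 1, and the difference was -0.63 (SE 0.25) with limma adjusted p = 0.833. Without mutant replicate 1 the difference was -0.36. Kcnh2, the pore of the delayed rectifier that repolarises the heart, gave 397, 423 and 505 on wild-type against 407, 398 and 414 on mutant arrays (-0.11, SE 0.13), and Kcnh1 0.16 (SE 0.20). Kcnh7, of the same family, gave -0.36 (SE 0.21), again without overlap but with 1 mutant array below 61.5.

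Kcna5, a Shaker-type pore, gave 152, 132 and 137 on wild-type against 199, 138 and 194 on mutant arrays (0.29, SE 0.16), and 0.44 without mutant replicate 2. Kcna7 gave 0.22 (SE 0.20), and from 0.10 to 0.41 without each array. Kcna2 gave 0.02 (SE 0.19), with overlapping groups, and Kcna1 -0.22 (SE 0.17) below the controls. Kcnc1, a pore of fast-spiking neurons, gave 124, 162 and 129 on wild-type against 154, 179.9 and 131 on mutant arrays (0.14, SE 0.16). Kcnd1, Kcnd3 and the modifier Kcns2 gave 0.39 (SE 0.32), -0.38 (SE 0.42) and 0.31 (SE 0.27); that of Kcnd1 turned to -0.16 with the 18S covariate. Without mutant replicate 1 those of Kcnd1 and Kcns2 were 0.16 and 0.02. Kcnd2, of A-type channels, had 3 probe sets below 61.5 on all arrays, and 1 of them gave 0.60 (SE 0.18) while the others gave 0.13 and 0.01 (SE 0.37 and 0.25). Kcnq1, a delayed rectifier of epithelium and heart, gave 44.1, 40.05 and 40.7 on wild-type against 45.5, 70.5 and 122 on mutant arrays. No wild-type array and 2 mutant arrays were above the controls, with limma adjusted p = 0.833. With arrays below 61.5 set to 61.5, the mean was 1.31-fold higher in mutants. That is not a lower bound, because mutant replicate 1 was itself raised to 61.5.

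Accessory potassium channel subunits of the Kcnab, Kcne and Kcnip groups were lower in mean in 16 of 21 probe sets, with a median of -0.19, against 54.2% of all probe sets. With quantile normalization 14 and with centring 15 of 21 were lower, where 48.8% and 43.6% of all probe sets were. Kcnip4, a calcium-binding protein that tunes A-type currents, gave 78.9, 81.3 and 73.4 on the wild-type arrays, against 63.7, 34.1 and 33.5 on the mutant arrays. The highest mutant value lay under the lowest wild-type value, and 1 mutant array was above 61.5; the difference was -0.69 (SE 0.20) with limma adjusted p = 0.825. Its other probe set gave -0.36 (SE 0.28). Kcnip1 gave 96.8, 137 and 118 on wild-type against 91.9, 86.7 and 91.03 on mutant arrays (-0.32, SE 0.14) without overlap, and -0.21 without wild-type replicate 2, while its 3 dimmer probe sets gave -0.06, -0.28 and 0.02.

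Kcnip3, which also acts as a calcium-dependent repressor of transcription, gave -0.12 (SE 0.17) and -0.19 (SE 0.11). Kcnip2 gave 0.06 (SE 0.13) with the probe set above the controls on all arrays. Its dim one gave 15.8, 6.77 and 5.91 on wild-type against 30.6, 23.7 and 32.6 on mutant arrays, with limma adjusted p = 0.679, all below 61.5, so that no fold is given. Kcnab2, an aldo-keto reductase-like subunit, gave 107, 95.3 and 94.2 on wild-type against 26.4, 116 and 70.7 on mutant arrays (-0.55, SE 0.38), with mutant replicate 1 as the lowest value, and -0.37 (SE 0.18) with a dim probe set. Kcnab1 gave -0.27 (SE 0.28) and 0.03 (SE 0.23), and Kcne1l and Kcne3 gave -0.19 (SE 0.16) and -0.23 (SE 0.13).

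Of the potassium channels opened by calcium, Kcnn2, the pore of a small-conductance channel that shapes the afterhyperpolarisation, gave 81.7, 79.9 and 68.5 on the wild-type arrays, against 62.2, 58.4 and 52.9 on the mutant arrays. The groups did not overlap, although the mutant values lay around 61.5, and the difference was -0.33 (SE 0.12) with limma adjusted p = 0.833. Kcnn1 had the smallest p of the members that were higher in mutants and above the controls on all 3 arrays of a group. With its dimmer probe set it gave 45.8, 40.4 and 60.4 on the wild-type arrays, against 79.8, 95.03 and 65.1 on the mutant arrays. No wild-type array and all 3 mutant arrays were above 61.5, at least 1.29-fold higher in mutants, with limma adjusted p = 0.833. Its brighter probe set gave 145, 152 and 187 on wild-type against 142, 123 and 152 on mutant arrays (-0.19, SE 0.14), in the other direction and with overlapping groups.

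Of the large-conductance channel genes, Kcnma1 gave 137 ± 25.8 (wild type) and 134 ± 37.1 (mutant), a difference of -0.05 (SE 0.21), and -0.20 (SE 0.33) with a dim probe set. Kcnmb2, a subunit that inactivates this channel, gave 498 ± 57.7 (wild type) and 492 ± 119 (mutant) with its brighter probe set and 369 ± 54.6 (wild type) and 444 ± 127 (mutant) with the other, differences of -0.04 (SE 0.19) and 0.23 (SE 0.22). The latter was 0.02 without mutant replicate 1, 0.11 without wild-type replicate 3 and 0.40 without mutant replicate 3. Kcnmb4, a neuronal subunit, gave 346, 382 and 389.5 on wild-type against 378, 333 and 344 on mutant arrays (-0.08, SE 0.11). All these groups overlapped. The dimmer probe set of Kcnmb1, with 1 array above the controls, had the highest difference of all members, 0.88 (SE 0.51), with limma adjusted p = 0.837. Its brighter one, above the controls on all 6 arrays, gave -0.03 (SE 0.22).

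Inward rectifiers and leak channels, which set the resting potential, had medians of 0.03 and 0.01, which ran from -0.07 to 0.08 and from -0.06 to 0.06 over the alternatives. Kcnj3 gave 232, 181 and 127 on wild-type against 186, 169 and 131 on mutant arrays (-0.12, SE 0.23). The brightest probe set of Kcnj6 gave 0.22 (SE 0.16), which was 0.07 without mutant replicate 1 and 0.33 without mutant replicate 2. Its other probe sets, none above the controls on all 6 arrays, ran from 0.03 to 0.22. Kcnj12 gave 0.21 (SE 0.22), which turned to -0.01 with the 18S covariate and -0.02 without wild-type replicates 2 and 3, and ran from 0.04 to 0.39 without each array in turn. Kcnj8, the ATP-sensitive pore of pericytes and smooth muscle, gave 52.5, 63.4 and 33 on wild-type against 39.1, 37.2 and 10.1 on mutant arrays (-0.60, SE 0.33). Of dim probe sets at an unadjusted p under 0.05, Kcnj5 gave -0.52 (SE 0.21) and 1 of 3 probe sets of Kcnj9 0.49 (SE 0.20). The others of Kcnj9 gave -0.32 (SE 0.47) and 0.10 (SE 0.17). Kcnk2, a leak channel opened by stretch, gave 107, 111 and 108 on wild-type against 104, 139 and 111 on mutant arrays (0.09, SE 0.13), Kcnk1 0.07 (SE 0.17) and -0.16 (SE 0.14), and Kcnk5 -0.01 (SE 0.12). Kcnk4 gave 88.7, 122 and 121 on wild-type against 67.95, 113 and 39.01 on mutant arrays (-0.58, SE 0.31), with the highest mutant array inside the wild-type range. Its difference was -0.27 without mutant replicate 3 and -0.89 without mutant replicate 2. Of the leak channel probe sets, 0 had groups that did not overlap, against 12% of all, and so few probe sets can give 0 at this share.

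Probe sets of the same gene often had differences of opposite sign. Of 33 genes with several probe sets, 17 had all differences of 1 sign, 11 of them lower and 6 higher in mean, and 0 had a pair of opposite sign with both at an unadjusted p under 0.05. Of the 12 probe sets at an unadjusted p under 0.05, 3 were above the controls on all 6 arrays, those of Cacna1g, Cacna1c and Kcnh3, all lower, and 4 were above on none. Of the 4 that were higher, 3 were above on none (Kcnip2, Kcnd2 and Kcnj9). For a probe set below 61.5 on every array, the difference is one between values in the range of the controls, and no fold is given.

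**Figure D4:**
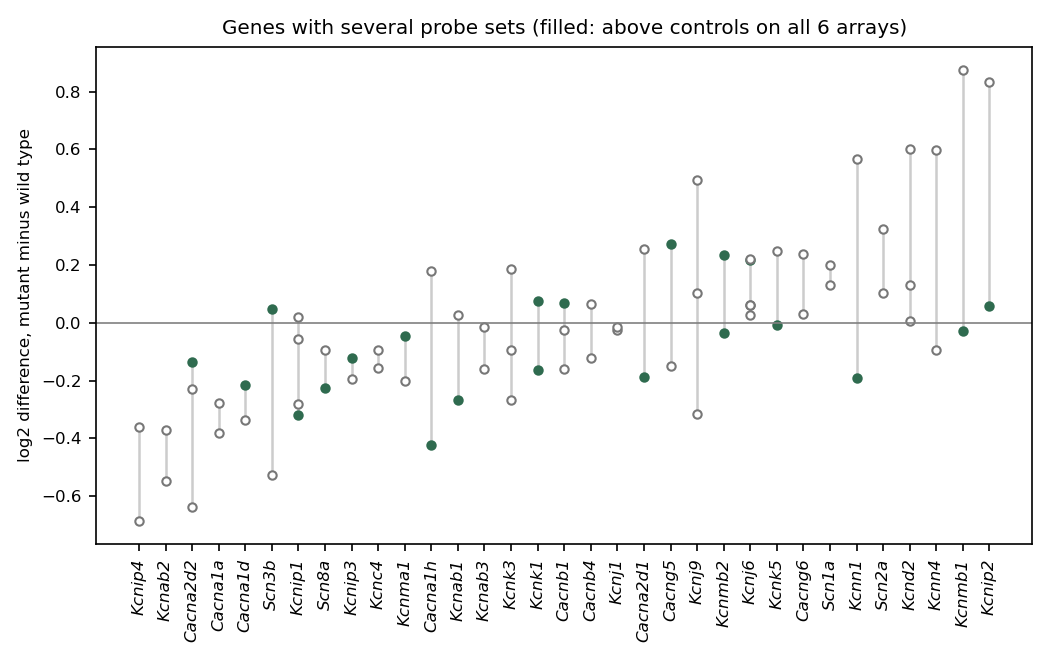
Difference between mutant and wild type on the log2(intensity + 16) scale (vertical axis) of every probe set of the 33 genes with several, 1 gene a column, ordered by the mean of its probe sets; filled points were above the controls on all 6 arrays. Both probe sets of Kcnip4, Kcnab2, Cacna1a and Cacna1d lie below 0, whereas those of Kcnn1, Kcnmb1 and Scn3b lie on both sides.

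Genes that work with these channels were read from lists set beside the members, with 1 probe set a gene, and 0 passed at an adjusted p under 0.05 in limma. Of all probe sets, 45.8% were higher and 54.2% lower in mean. At an unadjusted p under 0.05 in limma, 1.88% were higher and 3.88% lower. The lists are short, so their counts can depart from these shares by few genes. Of 11 measured partners of sodium channels, 9 were higher in mean and 0 reached an unadjusted p under 0.05; Cntn1, an adhesion protein of axons, gave 151 ± 9.96 (wild type) and 202 ± 46.98 (mutant) and Cntnap2 246 ± 30.3 (wild type) and 300.2 ± 23.7 (mutant). Of 11 partners of potassium channels 8 were lower in mean, and 0 reached it; the anchoring proteins Akap9 and Dlg2 gave -0.45 (SE 0.31) and 0.24 (SE 0.22). Of 8 partners of calcium channels 7 were lower, 1 of them, Stac, at an unadjusted p under 0.05 (-0.51, SE 0.17), below the controls on all arrays; Rrad gave 0.38 (SE 0.21), also below them.

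Of 21 other channels of the same superfamily, 1 was lower and 1 higher at an unadjusted p under 0.05, against 3.88% and 1.88% of all probe sets. Trpv2 gave 108 ± 4.87 (wild type) and 78.9 ± 8.22 (mutant) and Trpv6 67.1 ± 28.98 (wild type) and 125 ± 36.03 (mutant). Of 11 genes of the sodium-potassium pump and its regulators, 2 were lower at that level, where 3.88% of all probe sets were: Fxyd2 gave 73.7 ± 6.80 (wild type) and 31.4 ± 3.29 (mutant) and Fxyd3 298 ± 19.02 (wild type) and 228 ± 20.9 (mutant). All 9 genes of the Rest repressor complex were above the controls on all 6 arrays and 0 reached that level, with Rest at 479.8 ± 105 (wild type) and 470.2 ± 58.1 (mutant), Rcor2 at 1361 ± 387 (wild type) and 1061 ± 222 (mutant) and Hdac2 at 1436 ± 129 (wild type) and 1266 ± 191 (mutant).

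Markers of the cell types that could carry these transcripts were summed over each list, as linear intensity. The counts of genes lower in mean stand beside 54.2% of all probe sets. Neuron markers summed to 18932 to 22168 on wild-type and 15924 to 20690.3 on mutant arrays, with 11 of 15 genes lower in mean and overlapping ranges; Tubb3 gave -0.30 (SE 0.15) and Elavl3 -0.34 (SE 0.23). Those of neural progenitors summed to 22384 to 24793 and 20723 to 21498 (8 of 10 lower), with Sox3 at -0.76 (SE 0.20) and Msi1 at -0.50 (SE 0.17). Motor neuron markers, whose sums stand with the calcium channel pores, were lower in 8 of 8 genes (Mnx1 at background), with Phox2a at -0.89 (SE 0.26) and Lhx3 at -0.61 (SE 0.22). For mesenchyme and crest the sums were 13389 to 14074 and 12416 to 12533 (10 of 11 lower), with Sox10 at -0.40 (SE 0.13) and Col1a1 at -0.44 (SE 0.18). In these last 3 lists every mutant sum lay below every wild-type sum, as in Cacna1g and Cacna1c, and their part in those differences was not tested.

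The sums of the other lists (ranges over arrays) overlapped between the groups. Their counts, too, stand beside 54.2% of all probe sets lower in mean. Endothelium and pericyte markers, with Abcc9 at background, were lower in mean in 8 of 11 genes. Muscle markers were lower in 5 of 11, with Tnnt2, Myh3 and Myf5 at background. Otic and surface epithelium markers were lower in 4 of 8, macrophage markers in 6 of 8 and sensory ganglion markers in 4 of 5. Erythroid markers, with Epb42 at background, were lower in 2 of 8.

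**Figure D5:**
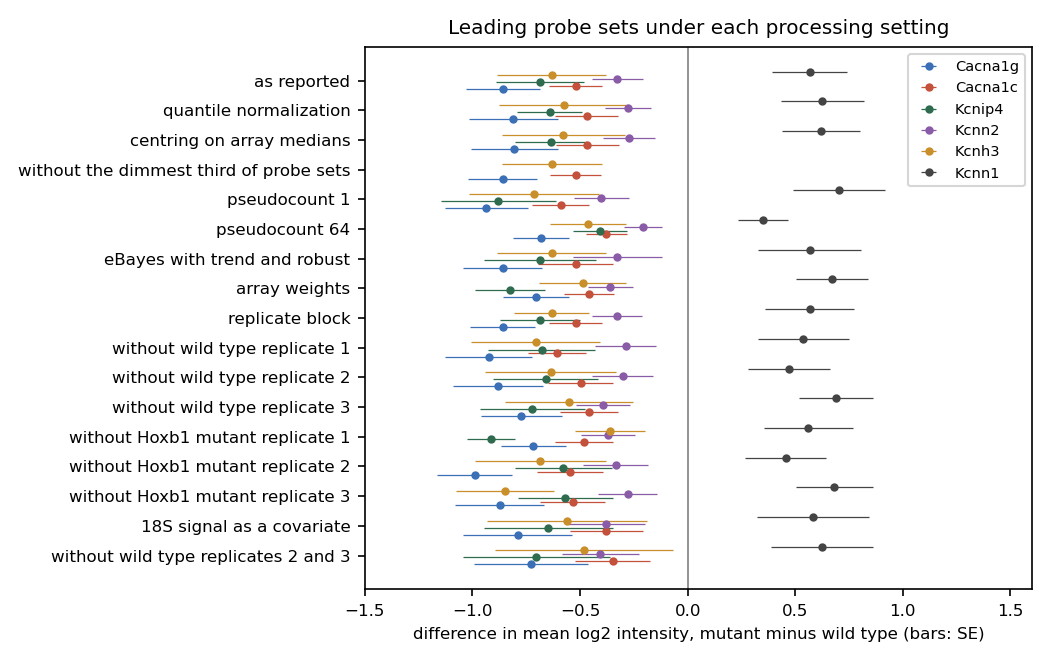
Difference between mutant and wild type in log2 intensity (horizontal axis, bars are SE) of 6 probe sets as reported and under 16 other processing settings (rows); probe sets left out by the filter on dim values have no point in that row. The differences of Cacna1g ran from -0.99 to -0.68 and those of Kcnn1 from 0.35 to 0.70.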

How the data were processed

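Wild-type and Hoxb1 mutant pools (3 each) were compared on 1 array each. The authors deposited linear intensities, 1 for each probe set on each array, scaled per array: after trimming 2% at each end, every array had a mean of 500. The submitters' processing notes name affy, and how probes were summarised, corrected for background or called detected is not stated. No further normalization was applied.

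The 64 control probe sets were left out. Symbols came from the platform annotation, checked through Entrez identifiers in RefSeq (GRCm38.p6), which changed 0 of the 137 members. The log2 of each intensity plus 16 was fitted by lmFit and eBayes of limma 3.58.1 (R 4.3.3; 2-sided, all 6 arrays, without covariates), and p-values were adjusted by Benjamini-Hochberg across 22626 probe sets; the step was tested on simulated data. A lower bound sets arrays below 61.5 to 61.5. The number of arrays limits the precision; 0 pairs of arrays were identical.

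The rule for members reads symbols only, but this gene family and the lists were chosen with earlier results of these data known. Named members were Hoxb1, a fixed list of 33 genes, and up to 10 per direction of smallest p among those with 1 group above the controls on all 3 arrays; for the other lists, the 2 genes of smallest p, except cell types given as counts only. Rest and the other members were added with values in view. Alternatives covered normalization, the filter on dim probe sets, the pseudocount, the variance model, array weights, the replicate block, left-out arrays and the 18S signal.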

Additional observations from a re-analysis of the deposited data

How the results depend on the processing

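Under 16 alternative settings 0 members passed at an adjusted p under 0.05, as in the reported fit. At an unadjusted p under 0.05, 8 members were lower and 4 higher as reported. The lower count was 5 with centring on array medians, 4 without the dimmest 33.3% of probe sets, 5 with eBayes trend and robust settings, 13 with array weights, 2 with the 18S covariate and 4 without wild-type replicates 2 and 3, and ran from 4 to 14 (2.92% to 10.2%) without each array in turn, where 2.88% to 6.52% of all probe sets were lower. The filter on dim probe sets kept 39 members, so that the 4 lower were 10.3% of them, against 4.63% of all kept. Over the settings named from centring to the 18S covariate, 1.46% to 10.3% of members were lower. Of all probe sets, 2.20% to 6.4% were. The higher count was 0 of the 39 members that the filter kept, where 2.27% of all kept were higher. Without each array it ran from 4 to 8 (2.92% to 5.84%), where 1.75% to 2.21% of all were higher. Groups without overlap, 14 lower and 7 higher, became 9 lower with quantile normalization, 5 lower and 1 higher without the dimmest probe sets, and 37 lower (27.0%) and 28 higher (20.4%) without wild-type replicates 2 and 3, where 25.0% and 19.0% of all probe sets did. The 9 lower with quantile normalization were 6.57% of members, against 6.02% of all probe sets. Of the 39 members that the filter kept, the 5 lower were 12.8% and the 1 higher 2.56%, against 7.37% and 5.67% of all kept. Without each array the counts without overlap ran from 18 to 40 lower (13.1% to 29.2%) and 9 to 15 higher (6.57% to 10.9%). The shares of all probe sets ran from 10.4% to 18.7% and from 8.57% to 10.2%, and fewer arrays make separation easier. Against the highest bacterial value 17 probe sets were above the controls on all 6 arrays, in place of 42.

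The median over member genes ran from -0.11 to 0.02, and was 0.02 both with quantile normalization and with centring. Of 313 values of 20 named probe sets, 304 kept their sign and 9 did not. With the 18S covariate Cacng3, Cacng5 and Kcnd1 turned to -0.24, -0.13 and -0.16, and Kcnj12 to -0.01. Without wild-type replicates 2 and 3 they turned to -0.29, -0.20 and -0.25, Kcnj12 to -0.02 and Kcns2 to -0.0045. The 18S signal was high on these arrays only, so the covariate and their removal are close to the same contrast. The cause was not tested. Same-numbered arrays showed correlations of deviations of 0.0533, -0.0166 and 0.0449. Replicates 1 and 3 correlated best with their own number, and replicate 2 did not. The labels also carry a code number that same-numbered wild-type and mutant arrays share, and its meaning is not stated. Deviations from means of 3 arrays cannot decide whether the arrays were paired. With the replicate block 12 members (8.76%) were lower at an unadjusted p under 0.05, against 4.15% of all probe sets. In that fit 4 (2.92%) were higher, against 1.87%, and 0 passed after adjustment. Bright and dim probe sets differ in precision: members near 61.5 carry little signal over background.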
